A study of Mus musculus with 51 samples.

Results

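The interferon and antigen processing genes described here are 9 mouse genes, *Irf1*, *Isg15*, *Herc6*, *Ifi35*, *Gbp2*, *Psmb8*, *Psmb9*, *Tap1* and *B2m*, found by symbol among the 24538 genes of each of 9 FPKM tables. FPKM is the number of sequenced fragments of a gene, scaled to its transcript length and to the depth of the library. The genes were chosen by their FPKM values in these same tables, with the WT and KO columns in view. Every difference between columns is therefore a description without a test. The RNA-seq part of the study comprised 18 of its 51 samples, taken while ES cells were turned into cardiac mesoderm with Bmp4 at 20 ng/ml. F1G4 WT cells were sequenced as ES cell aggregates before Bmp4 and after 1, 2 and 3 days of differentiation (2 libraries per stage). Of the F1G4 background, 3 mutant lines (*Eomes* KO, *T* KO and a dKO of both genes) were sequenced on days 2 and 3, and WT and *Smad4* KO cells of a 129S/SvEvxC57BL/6 line on days 1 and 2, with 1 sample for each line and day. Paired Cas9 nickases (D10A) placed around the promoter and the first exon gave the single KO lines of the F1G4 background, the dKO line was derived from *Eomes* KO cells, and the *Smad4* KO line arose by Cre excision of the floxed first exon. Each KO line came from single clones, so clone and genotype cannot be told apart, and feeder cells were removed from the cultures before differentiation.

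Interferons act through receptors that activate transcription factors, and these bind in front of interferon-stimulated genes. Irf1 is a transcription factor of the same circuit. Isg15 is a ubiquitin-like modifier that Herc6 attaches to other proteins in the mouse, Ifi35 is a leucine zipper protein found with Nmi, and Gbp2 is a GTPase that acts on the membranes of intracellular pathogens. Psmb8 and Psmb9 replace the subunits Psmb5 and Psmb6 in the immunoproteasome, Tap1 is a subunit of the peptide transporter of the endoplasmic reticulum, and B2m is the light chain of class I molecules that present the peptides. Pluripotent stem cells are known for weak responses to interferon, which strengthen as the cells differentiate.

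The depth behind these values could be read from the tables. FPKM multiplied by the length of genes with a single annotated transcript fell on whole multiples of 1 step in the KO columns and in those of the *Smad4* line, with 93.6% to 95.1% of the low values (up to 10 fragments) within 0.05 of a whole number. Each of these columns thus holds 1 set of reads, either 1 library or libraries merged before counting, which cannot be told apart, of 18100000 to 37400000 fragments. The F1G4 WT columns were means of 2 libraries of 21800000 to 29000000 fragments each, and solving for them gave both library values of every member on days 2 and 3. These libraries are called A and B within a day, without a link between days or to the replicate numbers. Among genes above FPKM 1 in both libraries, 4.02% differed more than 2-fold between the libraries on day 2, and 5.6% on day 3. *Eomes* stood at FPKM 0.276 in *Eomes* KO cells and 20.3 in WT on day 3, *T* at 3.00 in *T* KO cells and 323 in WT, and the dKO held 0.346 and 1.93. Each single KO was also lower in the other gene on day 3. *T* stood at FPKM 4.46 in *Eomes* KO cells against 334 in WT, and *Eomes* at 4.83 in *T* KO cells against 19.6. On day 2 the differences were smaller, with *Eomes* at 2.42 in *Eomes* KO cells and 9.42 in WT and *T* at 6.64 in *T* KO cells and 44.8 in WT, and *Eomes* was higher in *T* KO cells than in WT (24.7 against 9.81). *Smad4* RNA was not lower in *Smad4* KO cells (FPKM 46.8 and 39.3 on day 2), and with only the first exon removed this does not check the label. *Pou5f1*, a pluripotency gene, stood at FPKM 252.8 or above in all 14 conditions.

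The sequence in front of 5 members is shown because it holds letters known from interferon and NF-kB responses. Each stretch is given 5′ to 3′ on the gene's own strand, from the RefSeq annotation of GRCm38.p6, with the matching letters in capitals.
Irf1, chr11:53769904-53769952, GAS letters: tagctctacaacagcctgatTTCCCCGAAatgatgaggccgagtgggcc
Isg15, chr4:156200856-156200916, minus strand, IRF core letters: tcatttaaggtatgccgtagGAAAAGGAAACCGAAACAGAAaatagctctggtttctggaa
Gbp2, chr3:142620585-142620633, IRF core letters on the opposite strand: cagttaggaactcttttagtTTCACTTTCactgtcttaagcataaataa
Psmb8, chr17:34198078-34198126, GAS letters: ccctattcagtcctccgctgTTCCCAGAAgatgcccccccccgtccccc
B2m, chr2:122147528-122147590, IRF core letters, then NF-kB letters on the opposite strand: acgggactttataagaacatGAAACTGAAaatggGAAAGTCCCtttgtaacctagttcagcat

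The letters searched on both strands of the 250 bases before each annotated start were GAAANNGAA for the core of the IRF element, TTCNNNGAA for the interferon-gamma activated site (GAS), GGGANTTTC for the NF-kB site and AGGTGTGA for the T-box element that Eomes and T recognise. The IRF core was found in 3 of 9 members and in 7.13% of 32851 promoter windows. *Isg15* held 3 overlapping matches between 78 and 58 bases before its start. The GAS letters were found in 2 members (7.02% of windows), the NF-kB letters in 1 (0.941%), and the T-box letters in 0 (1.12%). A match of letters describes the sequence and is not a binding site, and the absence of a match says only that these letters are not in the window. *Psmb9* and *Tap1* lie head to head on chromosome 17, with *Psmb9* on the minus strand, and share the 225 bases between their starts, in which none of the 4 motifs was found and 61.3% of the bases are G or C. The shared stretch is shown on the strand of *Tap1* because both genes are members.
Psmb9 and Tap1, chr17:34187331-34187555: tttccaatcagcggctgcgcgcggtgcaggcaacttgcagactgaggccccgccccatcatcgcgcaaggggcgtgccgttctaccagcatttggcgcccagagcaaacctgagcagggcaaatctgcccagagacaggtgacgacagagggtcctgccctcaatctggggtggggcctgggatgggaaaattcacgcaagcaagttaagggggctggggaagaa

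**Figure D1:**
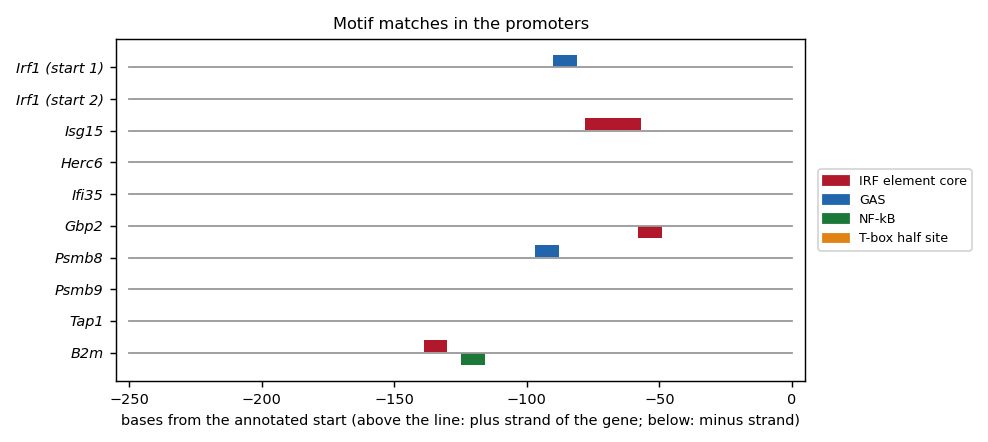
Position of motif matches in the 250 bases before the annotated starts of the 9 members (2 starts for *Irf1*), with bars above a line on the gene's strand and below it on the opposite strand. Matches stand in front of *Irf1*, *Isg15*, *Gbp2*, *Psmb8* and *B2m*, and no T-box letters were found.

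Members were first followed along the F1G4 WT time course. The transcription factor gene *Irf1* (chr11:53770014-53778374) was the most abundant member in ES cells. It stood at FPKM 21.6 in ES cells and 17.3 on day 1 (the authors' means), at 24.3 and 30.8 in the libraries of day 2, and at 76.6 and 76.3 in those of day 3. The day 3 libraries were thus 2.48 to 3.15 times those of day 2 in FPKM. In bulk RNA, more cells with a transcript and more transcript per cell cannot be told apart, here and in all comparisons that follow.

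The interferon-stimulated members differed in how early they were detected. *Isg15* (chr4:156199424-156200818) had 0 fragments in both ES libraries, where 3 fragments would give FPKM 0.142 and 0.182, and 2 and 0 fragments on day 1. It then stood at FPKM 1.10 and 1.28 on day 2 and at 24.7 and 12.2 on day 3. Both libraries of day 3 were far above those of day 2, by 9.53 to 22.4 times, although they differed 2.03-fold from each other. *Herc6* (chr6:57580992-57665136), the ligase for Isg15, had the smallest FPKM range of these genes, from 0.115 and 0.252 in ES cells and 0.589 and 1.15 on day 1 to 1.038 and 1.12 on day 2 and 1.75 and 1.94 on day 3. Its lowest library of day 3 was 1.56 times its highest of day 2.

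*Ifi35* (chr11:101448412-101458701) was present from the start. In FPKM it stood at 2.02 and 1.72 in ES cells and at 1.49 and 0.944 a day later, then at 0.667 and 2.69 on day 2 and at 11.1 and 9.37 on day 3. The day 2 libraries spanned the earlier values and differed 4.04-fold, whereas both day 3 libraries lay above all earlier ones. *Gbp2* (chr3:142620663-142638008) stood at FPKM 1.395 and 1.46 in ES cells and at a mean of 1.08 on day 1, at 8.35 and 15.1 on day 2, and at 139 and 48.4 on day 3, the highest FPKM of any member in any library. Its day 3 libraries differed 2.88-fold from each other, the largest such gap among the members on that day. *Gbp2b*, a close paralogue next to *Gbp2* that may share reads with it, had FPKM means of 0.626, 0.611, 6.49 and 41.2 from ES cells to day 3.

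Of the genes of antigen processing, *Psmb8* (chr17:34198195-34201454) had the largest step. It stood at FPKM 0.700 and 0.525 in ES cells and 0.826 and 1.72 a day later, at 2.94 and 8.88 on day 2, and at 68.6 and 67.3 in the last libraries. Both libraries of day 3 agreed closely and were 7.58 to 23.4 times those of day 2. *Psmb9* (chr17:34182030-34187330) was far lower on day 3, with FPKM 0.531 and 0.797 in ES cells, 2.31 and 1.28 a day later, 3.28 and 3.59 on day 2, and 10.9 and 6.99 on day 3. Each stage lay above the one before it without overlap of the libraries, and the step to day 3 was 1.95- to 3.33-fold.

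*Tap1* (chr17:34187556-34197225) had reached its later level by day 2 in 1 library. It stood at mean FPKM 0.532 in ES cells and 2.35 on day 1, then at 3.83 and 8.01 in the libraries of day 2 and 7.40 and 8.69 in those of day 3, so that days 2 and 3 overlapped. *B2m* (chr2:122147687-122153082) was abundant throughout, at mean FPKM 8.67 and 10.9 in ES cells and on day 1, 18.18 and 24.6 on day 2, and 63.99 and 45.1 on day 3. Its lowest day 3 library was 1.83 times its highest day 2 library.

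**Figure D2:**
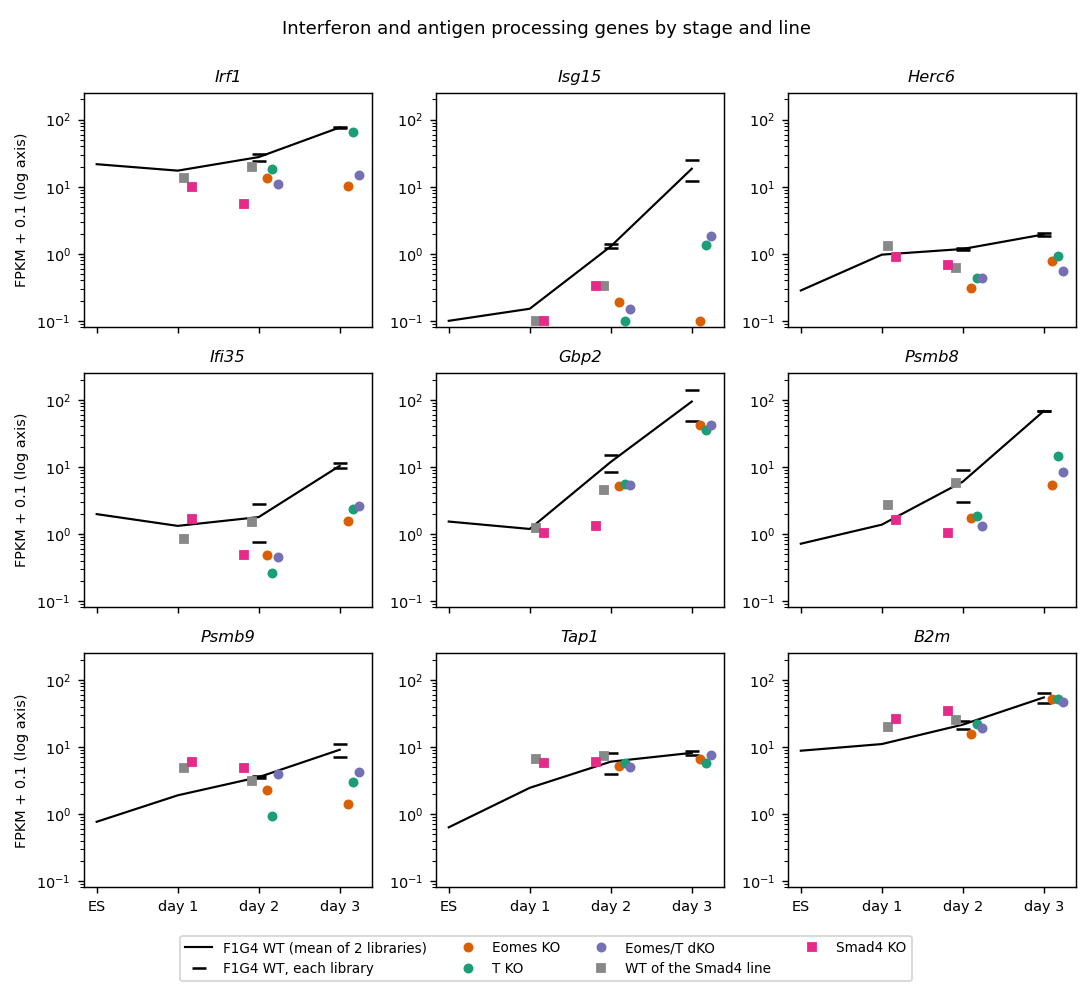
FPKM plus 0.1 on a log axis for each member by stage, with the F1G4 WT means as a line, the single WT libraries of days 2 and 3 as dashes, and the KO and *Smad4*-line columns as points. *Psmb8*, *Isg15* and *Gbp2* climb from day 2 to day 3 in WT, and *Tap1* and *B2m* in the KO lines stay near the WT dashes.

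Following the study, genes with an FPKM above 1 in at least one of 2 columns were examined, and those whose FPKM ratio on the log2 scale lay above 1 or below −1 were called. From ES cells to day 1, 3 members were called higher and 0 lower, beside 7.7% and 5.84% of all examined genes. *Herc6* did not reach FPKM 1 at either stage and *Isg15* was not examined. From day 1 to day 2, 4 were called higher and 0 lower (7.18% and 4.13% of all genes), namely *Isg15*, *Gbp2*, *Psmb8* and *Tap1*. From day 2 to day 3, 7 were called higher and 0 lower (6.14% and 4.06%). *Herc6* and *Tap1* were the ones not called. The median log2 ratio of the 9 members, with a pseudocount of 0.1, was 0.60, 0.96 and 1.47 over the 3 steps, and that of all examined genes −0.05, −0.0043 and 0.0062. When single libraries were compared, 8 members had both day 3 libraries above both of day 2, and 5 (*Irf1*, *Isg15*, *Ifi35*, *Gbp2* and *Psmb8*) by more than 2-fold, beside 2.54% of all genes. The members were chosen on these columns, so nothing is read from their shares.

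Next, KO lines were compared with WT on day 3, the stage at which the members were highest. The 3 comparisons of a day share their WT libraries and are not independent of each other. In the sentences that follow, WT stands at the library values given above, rescaled slightly between tables by the authors' processing. *Irf1* stood at FPKM 10.3 in *Eomes* KO and 14.8 in dKO cells, but at 64.7 in *T* KO cells. The first 2 were 7.70- and 5.34-fold below the lower WT library, and the *T* KO 1.19-fold. The log2 ratios to the WT mean were −2.95, −2.42 and −0.25.

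*Isg15* was the member with the largest differences. It had 0 fragments in *Eomes* KO cells, 35 in *T* KO cells (FPKM 1.24, 95% counting interval 0.862 to 1.72) and 27 in dKO cells (FPKM 1.76, 1.16 to 2.57), whereas the WT libraries held 543 and 243. With 3 fragments (FPKM 0.163) set as a floor for the count of 0, *Isg15* in *Eomes* KO cells was at least 118-fold below the WT mean. Against the lower WT library it was at least 78.8-fold lower by this floor. The 95% counting interval of the 0 count reaches somewhat higher, to FPKM 0.200. In *T* KO and dKO cells its log2 ratio to the WT mean was −3.91 and −3.44, and it was 9.95- and 7.20-fold below the lower WT library. Intervals and limits of this kind cover counting error only.

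*Herc6* and *Ifi35* were lower in each line. *Herc6* stood at FPKM 0.675, 0.830 and 0.449 in *Eomes* KO cells, *T* KO cells and dKO cells, and the *T* KO value was 2.12-fold below the lower WT library. *Ifi35* stood at FPKM 1.45, 2.24 and 2.47, from 48, 114 and 68 fragments, at least 3.97-fold below the lower WT library in each line. *Gbp2* was different in that its 2 WT libraries were far apart. Its FPKM was 41.6, 35.6 and 42.5 in *Eomes* KO cells, *T* KO cells and dKO cells, called lower against the WT mean (log2 ratio −1.23, −1.41 and −1.19) but only 1.22-, 1.38- and 1.19-fold below the lower WT library. Its call in *Eomes* KO cells was lost when FPKM was rescaled to a common sum (TPM).

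*Psmb8* was the gene of antigen processing with the largest differences. It stood at FPKM 5.22 in *Eomes* KO, 14.6 in *T* KO and 8.20 in dKO cells, which was 13.6-, 4.67- and 8.58-fold below the lower WT library. *Psmb9* stood at FPKM 1.32, 2.92 and 4.11, and the dKO value was 1.78-fold below the lower WT library. The gene across the shared 225 bases from it, *Tap1*, stood at FPKM 6.52, 5.57 and 7.40, close to WT (log2 ratio −0.37, −0.55 and −0.18). *B2m* stood at FPKM 51.2, 52.3 and 46.7, and the *Eomes* KO and *T* KO values lay between the WT libraries.

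In all, 7 members were called lower and 0 higher in *Eomes* KO cells on day 3, beside 9.01% and 7.39% of all genes, and 7 and 0 in dKO cells (5.53% and 5.51%). In *T* KO cells 6 were called lower and 0 higher (3.92% and 2.12%), *Irf1* being the difference. The median log2 ratio of the members was −2.73, −1.41 and −1.88 in *Eomes* KO cells, *T* KO cells and dKO cells, and that of all examined genes lay within 0.05 of 0. With a 2-fold distance from both WT libraries required, 6 members were lower in *Eomes* KO cells (5.81% of all genes), 5 in *T* KO cells (2.34%) and 5 in dKO cells (3.4%). *Isg15*, *Herc6*, *Ifi35* and *Psmb8* were among them in all 3 lines. Markers of nascent mesoderm differed alongside, with a summed FPKM over 8 genes of 446.9 in WT and 9.14, 32.6 and 23.1 in *Eomes* KO cells, *T* KO cells and dKO cells. The neural gene *Sox1* was higher in 2 of these lines, at FPKM 5.75 in *Eomes* KO and 6.49 in dKO cells against 0.199 and 0.198 in WT. All 6 neural markers listed summed to FPKM 25.7 in WT and 24.9, 38.3 and 35.6 in *Eomes* KO cells, *T* KO cells and dKO cells. *Nes*, the most abundant of them, stood at 25.5 in WT and at 18.4, 37.3 and 24.7 in these lines. The part of these differences in the levels of the members was not tested.

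**Figure D3:**
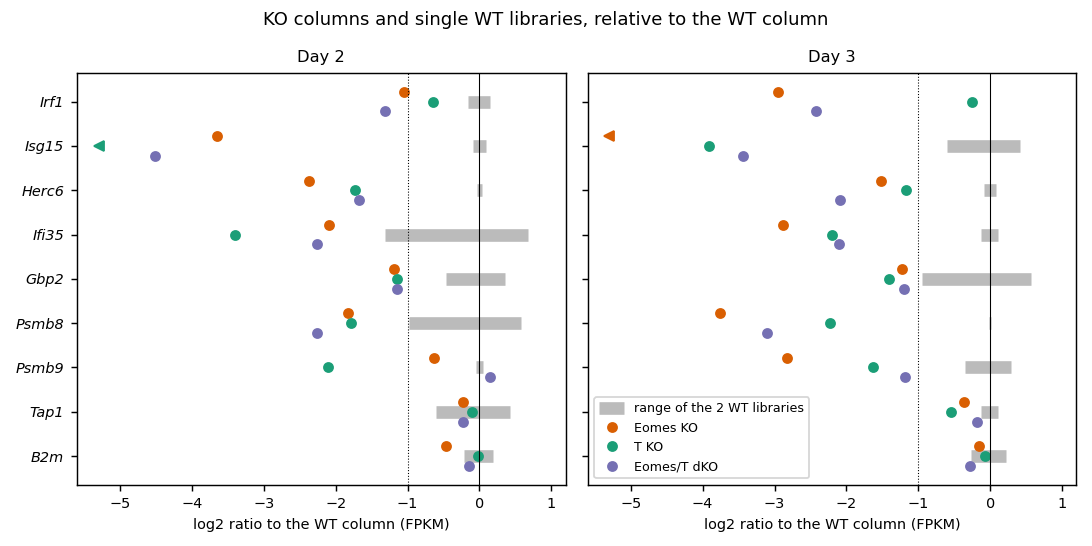
Log2 ratio of FPKM to the WT mean of the same day for each member, with KO columns as points, the span of the WT libraries as grey bars and 2-fold lower as a dotted line, and triangles at the left edge where no fragment was found. On day 3, *Isg15*, *Herc6*, *Ifi35*, *Gbp2*, *Psmb8* and *Psmb9* lie beyond the dotted line in the 3 KO lines, with *Gbp2* close to its long grey bar.

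On day 2 the members were lower to begin with and the fragments fewer. *Isg15* had 2 fragments in *Eomes* KO, 0 in *T* KO and 1 in dKO cells against 23 and 24 in the WT libraries. With 3 fragments (FPKM 0.219) as the floor, it was at least 5.59-fold lower in *T* KO cells than the WT mean, and the 95% counting interval reaches FPKM 0.270. *Herc6* stood at FPKM 0.207, 0.335 and 0.333 in *Eomes* KO cells, *T* KO cells and dKO cells, 3.11-fold or more below the lower WT library. *Psmb8* stood at FPKM 1.65, 1.76 and 1.21, below both WT libraries, which were themselves 3.02-fold apart. These 3 genes lay below both WT libraries in the 3 lines on both days, as did *Irf1*, *Ifi35* and *Gbp2*.

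The other members differed in their distance from WT on day 2. *Ifi35* stood at FPKM 0.389, 0.163 and 0.344 in *Eomes* KO cells, *T* KO cells and dKO cells, from 15, 4 and 12 fragments. The lower WT library, at 25 fragments, was 1.71-, 4.28- and 1.93-fold higher. *Irf1* stood at FPKM 13.2, 18.1 and 11.0 and *Gbp2* at 5.08, 5.42 and 5.23, each below both WT libraries. The *Gbp2* values were within 1.64-fold of the lower library. *Psmb9* differed between the lines, at FPKM 2.19 in *Eomes* KO, 0.823 in *T* KO (12 fragments) and 3.78 in dKO cells, the last above both WT libraries. *Tap1* lay between the WT libraries in the 3 lines, at FPKM 5.01, 5.64 and 4.98. *B2m* stood at FPKM 15.3, 21.8 and 19.1.

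On this day 6 members were called lower and 0 higher in each line, beside 4.17% and 3.35% of all genes in *Eomes* KO cells, 9.93% and 5.7% in *T* KO cells and 4.5% and 3.48% in dKO cells. *Isg15*, *Herc6*, *Ifi35*, *Gbp2* and *Psmb8* were called in the 3 lines, *Irf1* in *Eomes* KO and dKO cells, and *Psmb9* in *T* KO cells. Against both WT libraries 2 members were more than 2-fold lower in *Eomes* KO cells (2.32% of all genes), 4 in *T* KO cells (6.93%) and 4 in dKO cells (2.16%). *Isg15* and *Herc6* were among them in all 3 lines. The median log2 ratio of the members was −1.18, −1.48 and −1.30. Of the 8 mesoderm markers, 6 could be examined on day 2, and 3, 3 and 4 were called lower and 0, 2 and 0 higher. The 8 markers had a summed FPKM of 87.8 in WT and 44.9, 64.7 and 23.4 in the KO lines. *Sox1* stood at FPKM 7.17 in *Eomes* KO and 5.17 in dKO cells against 0.200 in WT. The 6 neural markers summed to FPKM 26.67 in WT and 37.27, 21.75 and 31.1 in *Eomes* KO cells, *T* KO cells and dKO cells.

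KO lines were also followed from day 2 to day 3, across tables that were scaled separately and were brought here to a median ratio of 1. In *Eomes* KO cells 4 members were called higher, beside 13.8% of all genes, namely *Ifi35*, *Gbp2*, *Psmb8* and *B2m*. *Irf1* went from FPKM 13.2 to 10.3 and *Psmb9* from 2.19 to 1.32 in this line. In *T* KO cells 7 were called higher (12.9% of all genes), with *Irf1* going from FPKM 18.1 to 64.7. In dKO cells 5 were called higher (8.41%), and *Irf1* went from FPKM 11.0 to 14.8. The step of *Gbp2* had log2 ratios of 3.01, 2.73 and 3.02 in *Eomes* KO cells, *T* KO cells and dKO cells beside 3.00 in WT, and that of *Psmb8* 1.64, 3.06 and 2.75 beside 3.52. Between single WT libraries the step ran from 3.21- to 16.7-fold for *Gbp2* and from 7.58- to 23.4-fold for *Psmb8*. Differences between lines in these steps rest on 1 column per line and day and have no replicate check.

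In the *Smad4* line, WT and KO cells were compared on days 1 and 2. On day 1 the members were close, with 1 called higher and 0 lower, beside 2.36% and 2.41% of all genes. That member was *Ifi35*, at FPKM 1.54 in *Smad4* KO and 0.747 in WT cells, from 50 and 24 fragments, and its call was lost with a pseudocount of 0.1. *Isg15* had 0 fragments in both. On day 2, 4 members were called lower and 0 higher (3.21% and 2.56%), namely *Irf1*, *Ifi35*, *Gbp2* and *Psmb8*. *Eomes* and *T* were lower in *Smad4* KO cells on that day, at FPKM 1.73 and 0.891 against 24.8 and 26.6 in WT. *Pax6*, a neural gene, was higher, at FPKM 10.4 against 0.378, and the part of these genes in the members' levels was not tested. The median log2 ratio of the 9 members was −0.17 on day 1 and −0.28 on day 2.

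*Irf1* stood at FPKM 5.35 in *Smad4* KO and 19.4 in WT cells on day 2, and *Psmb8* at 0.947 and 5.55. *Gbp2* stood at FPKM 1.19 and 4.48, and *Ifi35* at 0.383 and 1.42. The log2 ratios were −1.86, −2.55, −1.91 and −1.89, respectively. The paper names *Irf1* among putative direct targets activated by phosphorylated Smad proteins, near enhancers whose opening it found to depend on Smad activity. Binding and chromatin data were not examined here. *Isg15*, in contrast, had 6 fragments in each column, and *Herc6* stood at FPKM 0.570 and 0.511. *Psmb9* and *B2m* were higher in *Smad4* KO than in WT cells without reaching 2-fold, at FPKM 4.67 and 2.96 and at 34.5 and 25.0. *Tap1* stood at 5.93 and 7.20.

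From day 1 to day 2, 2 members were called higher and 1 lower in WT cells of the *Smad4* line (2.74% and 5.57% of all genes), *Gbp2* and *Psmb8* being higher and *Herc6* lower. In *Smad4* KO cells 0 were called higher and 1 lower (1.6% and 4.92%), which was *Ifi35*. The WT cells of both lines differed in the members too, those of the *Smad4* line carrying the floxed but intact *Smad4* allele. On day 1, *Psmb8*, *Psmb9* and *Tap1* were called higher in the WT cells of the *Smad4* line than in F1G4 WT (3 higher and 0 lower, beside 7.36% and 3.83% of all genes), with log2 ratios of 1.10, 1.45 and 1.50. On day 2, *Isg15*, *Herc6* and *Gbp2* were called lower (0 higher and 3 lower, beside 1.58% and 3.51%), with log2 ratios of −2.39, −1.07 and −1.38. *Irf1*, *Ifi35* and *Psmb8*, called lower in *Smad4* KO cells on day 2, differed between the WT lines on that day by log2 ratios of −0.50, −0.23 and −0.08.

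The immunoproteasome subunits were set beside their constitutive partners on the FPKM scale, which allows for transcript length. *Psmb8* made up 0.741% of the summed FPKM of *Psmb8* and *Psmb5* in F1G4 ES cells and 1.5%, 7.09% and 50.6% on the following days. *Psmb5* itself stood at FPKM 82.0 in ES cells and 66.3 on day 3. In *Eomes* KO cells, *T* KO cells and dKO cells on day 3 the share of *Psmb8* was 14.0%, 19.3% and 9.29%. In *Eomes* KO cells *Psmb5* was lower as well, at FPKM 32.0 against 69.4 in WT (log2 ratio −1.12), so the share there understates the difference in *Psmb8*.

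*Psmb9* remained a small part of its pair. Its share of the summed FPKM of *Psmb9* and *Psmb6* was 0.207% in ES cells and 3.11% on day 3 in WT, and 0.586%, 1.08% and 1.22% on day 3 in *Eomes* KO cells, *T* KO cells and dKO cells. *Psmb10*, the third immunoproteasome subunit, which is no member, made up 3.19% of its sum with *Psmb7* in ES cells and 9.64% on day 3 in WT, and 4.03% to 4.99% in the KO lines on day 3. RNA of the 3 subunits was therefore unequal on day 3, with *Psmb8* near parity with its partner and *Psmb9* far from it.

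**Figure D4:**
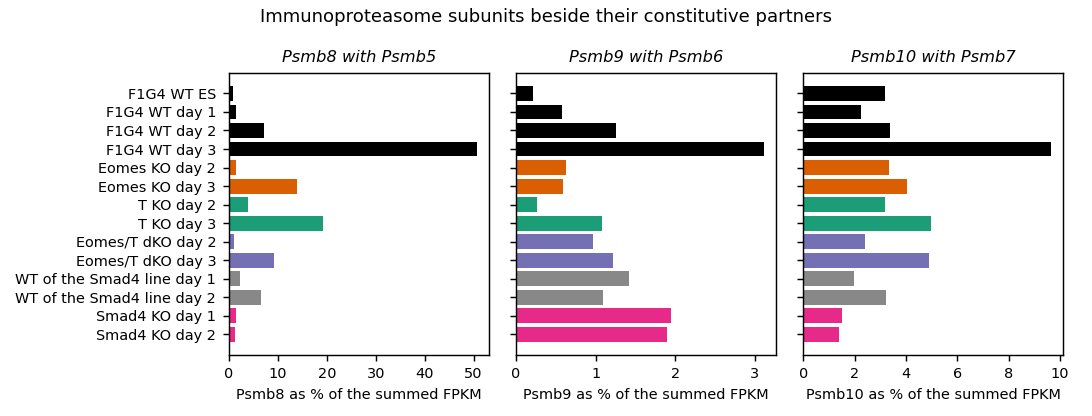
Share of each immunoproteasome gene in the summed FPKM of the gene and its constitutive partner, in percent, for the 14 conditions (each panel has its own axis from 0). F1G4 WT on day 3 has the longest bar for the 3 pairs, with 50.6% for *Psmb8*.

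Genes that share a pathway with the members were counted from lists drawn up by function, in which *Trim25*, *Irf7* and *Irf9* stand in 2 lists each. The interferon genes themselves were close to absent. Of 10 interferon genes, 10 were listed at 0 in F1G4 WT cells before day 3 and 9 on day 3, where *Ifna4* stood at FPKM 0.241, and the highest in a KO line was *Ifne* at 0.185. Of 14 receptor and signalling genes, 3 were called higher from day 2 to day 3 in WT. On day 3, 2, 1 and 2 of the 14 were called lower and 0 higher in *Eomes* KO cells, *T* KO cells and dKO cells. Among all examined genes, 6.14% were called higher and 4.06% lower over the WT step. In these KO lines on day 3, 9.01%, 3.92% and 5.53% of all genes were called lower and 7.39%, 2.12% and 5.51% higher. The day 3 counts of this and the following lists stand beside these shares, and earlier counts beside the shares given above.

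Other interferon-stimulated genes were called in the same directions as the members late in the time course but not early. Of 37, 19 could be examined from ES cells to day 1 in WT, where 2 were called higher and 6 lower. From day 1 to day 2, 17 could be examined, with 4 called higher and 2 lower. From day 2 to day 3, 23 were called higher and 0 lower, and 25, 21 and 20 were called lower and 0 higher in *Eomes* KO cells, *T* KO cells and dKO cells on day 3. In the comparisons of day 3, 29 of the 37 could be examined. The median log2 ratio of the 37 genes was −0.24, 0.01 and 2.33 over the 3 steps in WT and −2.03, −1.27 and −1.85 in the KO lines on day 3. On day 2, 3, 5 and 8 of 17 examined genes were called lower and 0 higher in the KO lines. *Oasl2* went from FPKM 1.19 to 16.0 in WT, and *Rtp4* from 0.180 to 7.84. Around *Isg15*, the gene of the enzyme that removes Isg15 from proteins, *Usp18*, went from FPKM 0.0557 to 11.6, and stood at 0.810, 0.332 and 0.949 in the KO lines on day 3. Of the 4 genes listed for conjugation or removal of Isg15, *Usp18* among them, 3 could be examined on day 3, and these 3 were called lower in each KO line. Of 10 other Gbp genes, 5 could be examined. These 5 were called higher over the WT step, and 3, 5 and 5 of them lower in the KO lines.

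Other genes of antigen processing and class I presentation were mixed, as were the members. Of 15, 13 could be examined. Over the WT step 8 were called higher and 0 lower. On day 3, 9, 3 and 7 were called lower and 0 higher in *Eomes* KO cells, *T* KO cells and dKO cells. *Tap2*, whose product pairs with that of *Tap1*, went from FPKM 2.30 to 13.7 and stood at 0.674, 4.06 and 3.39 in the KO lines, in contrast to *Tap1*, which was called in none of these comparisons. *H2-K1*, a class I heavy chain gene named after its values were seen, stood at FPKM 88.5 in WT on day 3 and 37.4, 60.9 and 44.3 in the KO lines. Of the 14 constitutive subunits of the 20S proteasome, 0 were called over the WT step and 1 in *Eomes* KO cells, *Psmb5*. Of 8 class II genes, 3 could be examined over the WT step, with 1 called higher and 1 lower.

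Genes of the NF-kB system and its targets differed between the days. Of 12, 0 were called over the WT step from day 2 to day 3, and 5, 1 and 6 were called higher and 0 lower in *Eomes* KO cells, *T* KO cells and dKO cells on day 3. In these comparisons 9, 11, 9 and 11 of the 12 could be examined. On day 2, 0 of 9 examined genes were called higher and 2, 1 and 1 lower in these lines, and 0 higher and 2 lower in *Smad4* KO cells. *Cxcl10*, a chemokine gene that interferons also induce, stood at FPKM 1.94 in WT on day 3 and 7.45, 5.49 and 18.9 in *Eomes* KO cells, *T* KO cells and dKO cells. The members *Irf1* and *B2m*, which respond to NF-kB as well, were not higher in these lines. The part of NF-kB in the levels of the members was not tested. Of the 11 sensor and adaptor genes, 6 could be examined. Of these, 3 were called higher and 0 lower over the WT step, and 2 lower in each KO line on day 3. *Mavs*, the adaptor of the RNA sensors, was called higher in *Eomes* KO cells on that day, at FPKM 5.68 against 2.67 in WT. The list of 11 other Irf family genes also holds *Irf2bp1*, *Irf2bp2* and *Irf2bpl*, genes of Irf2-binding proteins that are not Irf factors themselves. Of these 11 genes, 7 could be examined, of which 2 were called higher over the WT step and 0 were called in any KO line on day 3.

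**Figure D5:**
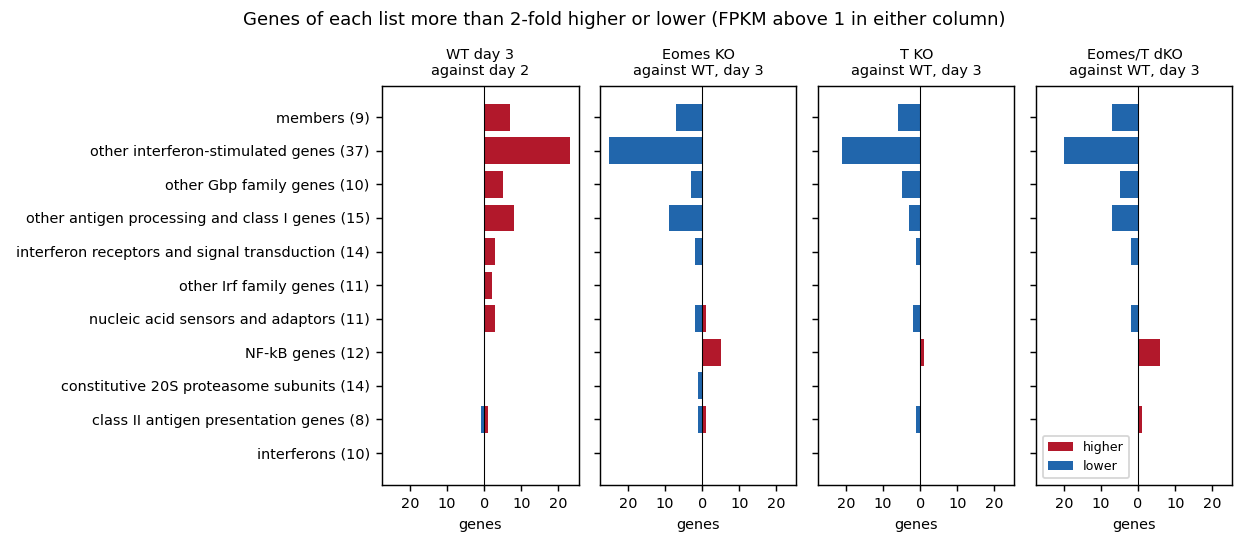
Number of genes of each list called higher (right of 0) or lower (left of 0) by a log2 ratio of FPKM beyond 1, for WT day 3 against day 2 and for the KO lines against WT on day 3, with the size of each list in parentheses. Members and other interferon-stimulated genes are called higher over the WT step and lower in the KO lines, and NF-kB genes are called higher in *Eomes* KO and dKO cells.

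Markers of other cells that could carry these genes were counted beside the members. The 14 fibroblast markers, which feeder cells would bring, summed to FPKM 2.19 to 7.30 in the F1G4 WT conditions. In *Eomes* KO cells on day 3 they summed to 18.6, with 12 of 14 above both WT libraries and *Pdgfrb* highest at 5.81, and in *T* KO and dKO cells to 7.06 and 10.4. The 8 immune cell markers summed to FPKM 1.56 to 8.52 over all conditions, most of it *Cd68*, and 3 to 6 of the 8 were listed at 0. *Adgre1*, a macrophage marker, was at 0 in all 14 conditions, and *Ptprc*, carried by leukocytes, did not exceed FPKM 0.131. *Col1a1* and *Col1a2*, the main collagens of fibroblasts, did not exceed 0.946. Their part in the levels of the members was not tested.

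The genes most like the members were sought over the 8 comparisons of a KO line with WT, as the Pearson correlation of log2 ratios (pseudocount 0.1) with the mean of the 9 members, among 9097 genes that reached FPKM 5. They were *Sox3* (r = 0.987), *Efhd2* (0.982), *Trib1* (0.962), *Stxbp3* (0.959) and *Slc25a14* (0.959). The 8 members that reached FPKM 5, all but *Herc6*, ranged from 0.948 for *Isg15* (rank 8) to 0.307 for *Tap1* (rank 3265). Each member is itself part of the mean it was correlated with, unlike the genes named before, so these ranks are not on an equal footing. *Irf1* had rank 1136, *Gbp2* 2576 and *B2m* 938, so the mean does not describe every member. The most extreme ratio in the mean was that of *Isg15* in *Eomes* KO cells on day 3. It was −7.59, from 0 fragments, and rests on the pseudocount. A correlation takes no account of level. *Sox3* and *Trib1* were higher in *Smad4* KO cells (log2 ratio 2.02 and 1.17 on day 1) and *Slc25a14* was lower in each comparison. The 8 comparisons share WT columns, and the values are a description.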

How the data were processed

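Total RNA was made into strand-specific ScriptSeq libraries and read from both ends. Reads were aligned by the authors to mm10 with HISAT2 2.1.0 and computed FPKM per RefSeq gene with Cuffdiff 2.2.1, and deposited the FPKM values in 9 tables, each normalized separately, with 20 columns of conditions. Samples were grouped by their labels. The members and gene lists were chosen with earlier results of these data known.

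Ratios were taken within a table without a pseudocount, except between WT lines and between days of 1 mutant line, which were scaled to a median ratio of 1 over genes above FPKM 1 in both columns. Medians and correlations used a pseudocount of 0.1. No significance test was applied. Fragments were recovered from FPKM and the RefSeq length of single-transcript genes (7 of 9 members, not *Irf1* and *Tap1*), and the WT library values were solved from the different weights that the tables give the same 2 libraries. This step was tested on simulated data. The depth was 18100000 to 37400000 fragments per WT library or mutant or *Smad4*-line column, and such a column may hold merged replicates, and exact Poisson intervals (95%) describe counting error. The WT columns were expected to hold 1 pooled value, so comparisons with single libraries were added after the data were seen.

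All members are named, and so are the targeted genes and constitutive partners. Of each list, at most 3 genes with the largest absolute log2 ratio are named per comparison, among called genes that are above 0 in both columns and reach FPKM 5 in one, plus the 5 genes most like the members. Genes named outside this rule were chosen after their values were seen. Alternatives were pseudocounts of 0.1 and 1, no FPKM minimum or one of 5, scaling, rescaling to TPM, and single WT libraries. Scripts used scipy 1.17.1, pandas 2.3.3, numpy 2.4.6 and Python 3.11.15, with figures from matplotlib 3.10.9.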

Additional observations from a re-analysis of the deposited data

Results flagged for a closer look

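*Ifi35* was called higher in *Smad4* KO than in WT cells on day 1 (log2 ratio 1.043, from 50 and 24 fragments) and lower on day 2 (log2 ratio −1.89, from 18 and 68 fragments). It stands out because the same genotype contrast had opposite directions on consecutive days. The FPKM intervals for counting error were 1.14 to 2.03 in *Smad4* KO and 0.479 to 1.11 in WT cells on day 1, and 0.227 to 0.605 and 1.10 to 1.80 on day 2. With 1 column per line and day the difference between the days was not tested.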

How the results depend on the processing

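Of 96 alternatives to the counts of called members, 80 stayed within 1.5 times the reported count, and among 754 recomputed log2 ratios of single members 0 called ones changed sign. With a pseudocount of 0.1 or 1, the single call in *Smad4* KO cells on day 1 was lost (0), as it was with an FPKM minimum of 5 (0). A pseudocount of 1 left 2 of 6 calls in *Eomes* KO cells on day 2, 1 of 3 from ES cells to day 1 in WT, and 1 of 3 between the WT lines on day 2. An FPKM minimum of 5 left 2 of 4 calls in *Smad4* KO cells on day 2. In mutants of the F1G4 background on day 2 it left 3 of 6 in *Eomes* KO, 2 of 6 in *T* KO and 3 of 6 in dKO cells. In WT it left 0 of 3 from ES cells to day 1, and between the WT lines 1 of 3 on day 1 and 1 of 3 on day 2. Without a minimum, 5 members instead of 3 were called from ES cells to day 1. Against each WT library instead of their mean, a choice made after the data were seen, 2 of 6 calls stood in *Eomes* KO cells on day 2. Of the 5 genes most like the members, 1 was shared with a pseudocount of 1. Day 3 counts in the KO lines and the WT step to day 3 stayed within 1.5 times under each alternative. Rescaling to TPM shifted log2 ratios of all genes by −0.217 and 0.284 in *Eomes* KO cells on days 2 and 3, by 0.122 in *T* KO cells on day 2 and by −0.408 and −0.11 in dKO cells, and ended the call of *Gbp2* in *Eomes* KO cells on day 3. No paired analysis was possible because no result comes from a test and the KO columns hold 1 sample each. Low fragment counts limit *Isg15* and *Ifi35* on days 1 and 2, and *Psmb9* in *T* KO cells on day 2 (12 fragments). *Herc6* had 31, 32 and 45 fragments in *Eomes* KO cells, *T* KO cells and dKO cells on day 2.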

Other observations

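*Gbp2b*, the paralogue beside *Gbp2*, was listed at 0 in the 4 columns of the *Smad4* line, both in WT and in *Smad4* KO cells on days 1 and 2, whereas F1G4 WT cells stood at FPKM 0.611 and 6.49 on these days. *Gbp2* itself stood at FPKM 4.48 in WT cells of the *Smad4* line on day 2. Whether reads were shared between the paralogues was not tested.

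Other genes of the pathway were lower in *Smad4* KO than in WT cells on day 2. *Irgm1*, an interferon-induced GTPase, stood at FPKM 1.28 in *Smad4* KO and 14.9 in WT cells, and *Ifitm3*, a membrane protein that restricts virus entry, at 8.93 and 34.3. Of 37 other interferon-stimulated genes 16 could be examined, and 5 were called lower and 0 higher. Of 15 other antigen processing genes 12 could be examined, and 4 were called lower and 0 higher. Among all examined genes, 3.21% were called lower and 2.56% higher. *Erap1*, a peptidase that trims peptides for class I molecules, stood at FPKM 1.28 and 7.00, and *Tapbp*, which links Tap to class I molecules, at 1.85 and 5.88.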
